A study of Homo sapiens with 6 samples.

Results

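The S100 calcium-binding protein genes counted in Calu-6 cells were S100A2, S100A4, S100A6, S100A10, S100A11, S100A13 and S100A16, 7 of the 10072 genes in the count table. They were taken by gene symbol, having been chosen by their counts and log2 fold changes, per gene and per model, in the siDelta2-4 to siControl contrast, and held 39 of the 21472 transcript models. Calu-6 is an established human cell line grown from a lung carcinoma. Its cells received 10 nM of siRNA for 48 h, either a non-silencing one (siControl, 3 libraries) or one directed at the join of exon 1 to exon 5 in TERT Delta 2-4, a splice variant of the telomerase gene (siDelta2-4, 3 libraries). Long cDNA reads of polyadenylated RNA were then counted. The study's methods state that the sequenced Calu-6 lines stably carried either an empty vector with Flag and V5 tags or tagged Delta 2-4. Such lines were made with lentivirus and selected with blasticidin. The names of the count columns carried the word Empty, which names the empty-vector line. The labels gave the genotype of every library as wild type, and how this was meant is not stated. The libraries are named here by the number in their column names, which only names a library. The study called the libraries of a group biological replicates. The labels did not say whether they came from separate cultures, so p-values measure the spread between these libraries, which may be technical in part.

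The 6 libraries held 1037468 to 1309241 counts. The targeted gene, TERT, had 0 rows, so its knockdown was not analysed here. The epithelial keratins KRT8 and KRT18 had 114 to 171 and 162 to 231 counts per library, and the mesenchymal filament gene VIM had 130 to 206. EPCAM had 1 to 3 counts per library, KRT19 had 1 count in all and KRT7 had 41. The other listed mesenchymal genes were nearly absent, FN1 with 2 counts in all and CDH2 with no row. The epithelial gene CDH1 and the listed lung markers NKX2-1, SFTPB and SFTPC had no rows. The blood and endothelial markers PTPRC, PECAM1 and VWF had none either, and the blood marker CD74 had 2 counts in all. In such bulk RNA, fewer cells expressing a gene and less RNA of it per cell cannot be told apart.

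S100 proteins are small proteins with EF-hand domains, a helix-loop-helix fold that binds calcium. Most form dimers, and calcium opens a cleft with which they bind other proteins, among them annexins, myosin and p53. Many of their genes lie side by side on the long arm of chromosome 1 and are expressed in epithelial cells and in many carcinomas, including those of the lung. The typical gene has a short untranslated first exon and its start codon in the second exon, so that transcripts with different first exons can encode the same protein.

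All 7 genes lie on the minus strand of chromosome 1 (GRCh38, Gencode 44). S100A6 (chr1:153534599-153536244), S100A4 (chr1:153543613-153550136), S100A2 (chr1:153561108-153567890), S100A16 (chr1:153606886-153613145) and S100A13 (chr1:153618787-153631360) lie within 96.8 kb. S100A10 (chr1:151982915-151993859) and S100A11 (chr1:152032506-152047907) lie apart from these 5 and 38647 bases from each other. The coding sequences of the leading transcripts were 273 to 318 bases long including the stop codon. They shared 49.1% to 69.6% of bases over the 21 pairs (median 54.2%), and the closest pair was S100A2 and S100A4.

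S100A13 was counted on models with different first exons, and the sequences around their starts are shown first. S100A13-205, the most counted model, starts at base 153627505, and S100A13-203 starts 237 bases downstream, inside the first intron of S100A13-205. The stretches below run from 150 bases before each start to 20 bases from it, on the minus strand, and are parts of RefSeq promoter windows (GRCh38.p14). S100A4-204, the leading S100A4 model, is shown because its start has the same element. Capitals mark the motif TATAAA.
S100A13-205, chr1:153627486-153627655: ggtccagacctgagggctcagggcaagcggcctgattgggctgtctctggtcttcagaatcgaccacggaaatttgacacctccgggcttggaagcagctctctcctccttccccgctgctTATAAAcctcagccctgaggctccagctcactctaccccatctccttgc
S100A13-203, chr1:153627249-153627418: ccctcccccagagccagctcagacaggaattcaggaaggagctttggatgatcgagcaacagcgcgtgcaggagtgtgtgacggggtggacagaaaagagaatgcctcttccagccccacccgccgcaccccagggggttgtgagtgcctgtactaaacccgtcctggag
S100A4-204, chr1:153545787-153545956: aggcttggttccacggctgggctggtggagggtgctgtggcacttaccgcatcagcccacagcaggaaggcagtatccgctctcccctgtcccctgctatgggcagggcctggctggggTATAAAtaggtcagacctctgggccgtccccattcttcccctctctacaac

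RefSeq windows of 300 bases (250 before to 50 after a start) were searched on both strands for 4 motifs. These were TATAAA (the letters of a TATA box), CCAAT (the CCAAT box), GGGCGG (linked to Sp1) and TGANTCA (linked to AP-1). There were 11 windows for the 7 genes. TATAAA was in 2 of them, beginning 29 bases before the start at S100A13-205 and 31 bases before it at S100A4-204, and in 11.5% of all 35116 windows. GGGCGG was in 5 of the 11, among them those of S100A10, S100A11 and S100A6, and in 45.0% of all windows. The window whose start lies 29 bases from that of S100A13-203 held none of the 4. CCAAT was in 2 of the 11 windows and in 34.6% of all, and TGANTCA was in the window of S100A2-202 and in 7.7% of all. A match describes letters only.

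The S100A13 models differ before the protein begins. S100A13-205 has a first exon of 23 bases and S100A13-203 one of 130 bases, both spliced to the same second exon of 214 bases, which holds the start codon. All 4 annotated S100A13 models in the table carry 1 coding sequence of 297 bases, or 98 codons and a stop, shown with its start and stop codons in capitals.
S100A13 coding sequence, GRCh38, minus strand: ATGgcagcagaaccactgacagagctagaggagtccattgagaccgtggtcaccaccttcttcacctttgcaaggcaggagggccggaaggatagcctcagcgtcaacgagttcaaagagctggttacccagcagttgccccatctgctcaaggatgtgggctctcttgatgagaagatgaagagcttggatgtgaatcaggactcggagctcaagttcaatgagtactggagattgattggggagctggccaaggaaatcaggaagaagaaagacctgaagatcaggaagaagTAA

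**Figure D1:**
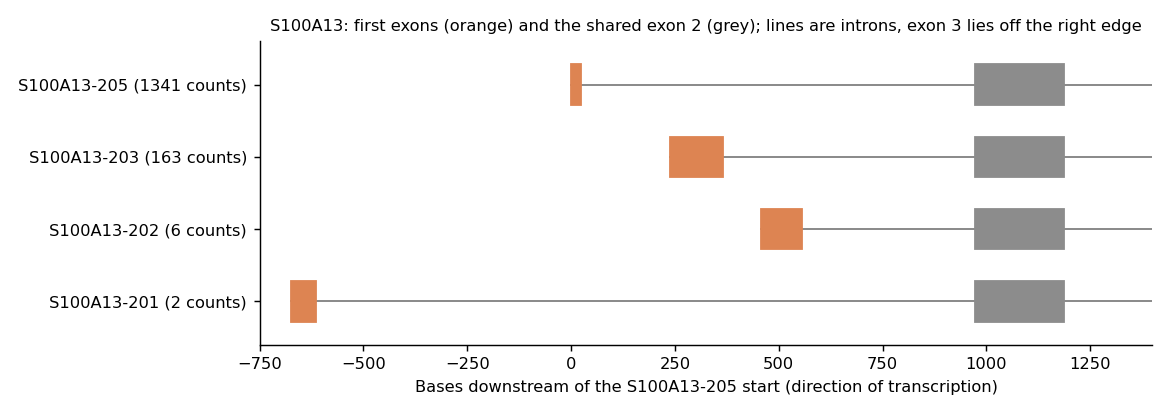
Annotated S100A13 models in the table, drawn to scale by distance in bases from the start of S100A13-205. Orange boxes are first exons and grey boxes the shared second exon. S100A13-203 starts 237 bases downstream of S100A13-205, and S100A13-202 and S100A13-201, with 6 and 2 counts, start 457 bases downstream and 675 bases upstream.

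S100A13, a protein known for its part in the export of fibroblast growth factor 1 and interleukin 1 alpha by cells, had overlapping levels in both groups, while the share of its transcripts with the downstream first exon was higher in every siDelta2-4 library. Its level was 292, 282 and 250 CPM (counts per library scaled to 1e+06, on TMM-scaled totals) in siControl libraries 1, 2 and 3, and 315, 266 and 270 CPM in siDelta2-4 libraries 1, 2 and 3. The groups overlapped. The mean was 275 ± 22.1 CPM in siControl and 283 ± 27.1 CPM in siDelta2-4 (n = 3 each, SD), a log2 fold change of 0.042 ± 0.10 (SE; siDelta2-4 relative to siControl, as throughout).

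The S100A13 counts lay on 5 models. S100A13-205 held 71.7% of them and the unannotated model TALONT000459088 held 19.1%. The latter has 2 exons and 466 bases and matches the 3' end of an annotated exon chain, so it carries no first exon that would place it at either start. S100A13-203 held 8.72%.

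S100A13-203 had 20, 15 and 13 counts in siControl libraries 1, 2 and 3, and 38, 32 and 45 counts in siDelta2-4 libraries 1, 2 and 3. Every siDelta2-4 library lay above every siControl library. The level was 15.5 ± 3.38 CPM in siControl and 32.8 ± 5.05 CPM in siDelta2-4 (n = 3 each, SD), a log2 fold change of 1.07 ± 0.25 (SE). As a share of the S100A13 counts this was 5.58% ± 0.94 in siControl and 11.3% ± 1.5 in siDelta2-4 (n = 3 each, SD). Neither measure overlapped between the groups. Among all tested models the CPM values lay apart for 21.8%, and shares of a gene lay apart for 13% of 4188 models. Both percentages include unannotated models, whose rows were selected with respect to siDelta2-4, as set out below. The part of this in both percentages was not tested. With 13 to 45 counts per library, the 95% Wilson intervals of the shares were wide. They reached from 2.93% to 10.1% over the siControl libraries and from 7.02% to 16.7% over the siDelta2-4 libraries, and they cover counting error only.

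S100A13-205 had 210, 230 and 191 counts in siControl libraries 1, 2 and 3, and 243, 227 and 240 in siDelta2-4 libraries 1, 2 and 3. Its level was 204 ± 17.5 CPM in siControl and 204 ± 24.9 CPM in siDelta2-4, and its share of the S100A13 counts was 73.8% ± 4.15 and 70.0% ± 2.12 (n = 3 each, SD). Both overlapped between the groups. TALONT000459088 had a share of 20.4% ± 3.57 in siControl and 18.1% ± 1.92 in siDelta2-4, with overlapping groups and a log2 fold change of -0.10 ± 0.18 (SE).

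The balance between both first exons was therefore taken over S100A13-203 and S100A13-205 alone. S100A13-203 made up 8.70%, 6.12% and 6.37% of these counts in siControl libraries 1, 2 and 3, and 13.5%, 12.4% and 15.8% in siDelta2-4 libraries 1, 2 and 3. The means were 7.06% ± 1.42 and 13.9% ± 1.75 (n = 3 each, SD), and the groups did not overlap. Such a ratio was not taken for other genes. S100A13-205 remained the more counted model in every library.

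**Figure D2:**
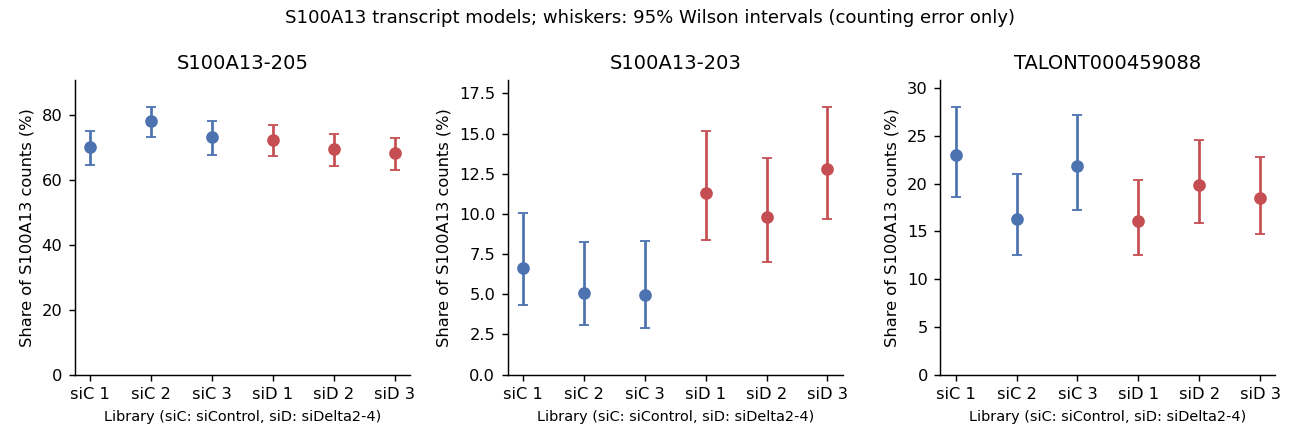
Share of the S100A13 counts, in percent, on its 3 leading models in each library, with 95% Wilson intervals. The S100A13-203 shares of the 3 siDelta2-4 libraries, 9.79% to 12.8%, all lie above those of the siControl libraries, 4.98% to 6.67%, while the shares of the other models overlap.

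The transcript models were part of how these genes were chosen, so the following counts are descriptions. Of the 6768 models tested, 6.91% (3.95% higher and 2.97% lower in siDelta2-4) passed an adjusted p of 0.1 (edgeR quasi-likelihood test, Benjamini-Hochberg), as did 3 of the 21 tested S100 models, S100A13-203, S100A10-202 and an unannotated S100A6 model. The models tested include unannotated ones, whose rows were selected with respect to siDelta2-4. A test of transcript usage within genes (diffSpliceDGE) passed in 0.618% of the 1132 genes tested. It passed for S100A13 and for none of the other 4 S100 genes with enough models, S100A4, S100A6, S100A10 and S100A11. For S100A13 it was lost in 7 of 10 alternative settings, among them the omission of any library except siControl library 3. The call of S100A13-203 was lost in the DESeq2 Wald test, where its log2 fold change was the same at 1.07. That of S100A10-202 was lost without siControl library 2, siDelta2-4 library 2 or siDelta2-4 library 3. The call of the S100A6 model was lost in the Wald test and without siControl library 1 or siDelta2-4 library 3. With at least 10 counts required in every library, the S100A6 model was not tested.

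S100A10, the p11 subunit that pairs with annexin A2 and has lost the ability to bind calcium, was lower in siDelta2-4. Its level was 1343, 1395 and 1329 CPM in siControl libraries 1, 2 and 3 and 1178, 1078 and 1126 CPM in siDelta2-4 libraries 1, 2 and 3. All siDelta2-4 libraries lay below all siControl libraries; 26% of all genes tested had groups apart, 11.9% with siDelta2-4 below. The means were 1356 ± 35.0 and 1128 ± 49.9 CPM (n = 3 each, SD), with a log2 fold change of -0.27 ± 0.078 (SE). Nearly all of this was 1 model: S100A10-202 held 93.8% of the counts, with a log2 fold change of -0.24 ± 0.070 and a share of 94.1% ± 0.78 in siControl and 93.6% ± 0.63 in siDelta2-4.

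S100A16, a widely expressed member of the family, was also lower. Its level was 139, 150 and 165 CPM in siControl libraries 1, 2 and 3 and 124, 106 and 126 CPM in siDelta2-4 libraries 1, 2 and 3. The groups did not overlap, as for 26% of all genes tested, 11.9% with siDelta2-4 below. The means were 151 ± 12.7 and 119 ± 10.6 CPM (n = 3 each, SD), with a log2 fold change of -0.35 ± 0.12 (SE). S100A16-203 held 95.1% of its counts. S100A13, next to it on the chromosome, had a log2 fold change of 0.042.

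The threshold of an adjusted p of 0.1 was passed by 13% of the 3888 genes tested (5.97% lower in siDelta2-4), and by S100A10 and S100A16 among the 7 S100 genes. These genes were proposed from the same contrast, so nothing is read from that count. Over the 3888 genes tested, 1794 log2 fold changes were below 0 and the median was 0.027. Of the 7 S100 genes 5 were below 0, with a median of -0.079. This turned with the trend of the fold change on transcript length removed, where 3 of 7 were below 0 with a median of 0.028, against -0.0091 over all genes. S100A10 passed in 12 of 15 alternative settings and S100A16 in 6 of 15, with log2 fold changes of -0.30 to -0.18 and -0.43 to -0.28. For S100A10 the call was lost without siControl library 2, siDelta2-4 library 2 or siDelta2-4 library 3. The gene nearest to the threshold on its inner side was S100A16, and of the S100 genes outside it S100A2 came next, with a log2 fold change of -0.32 ± 0.17 (SE). The call of S100A16 depended on the setting, and S100A2 passed in 1 of 15 alternative settings.

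**Figure D3:**
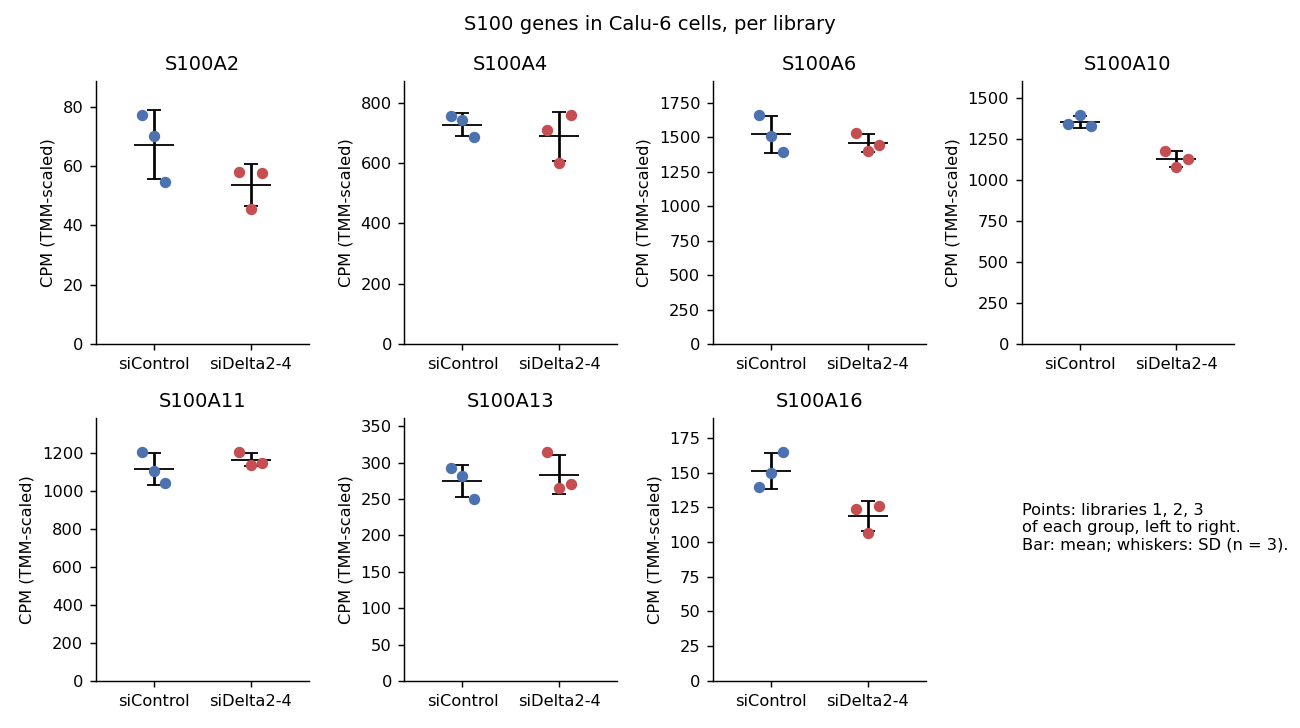
Level of each S100 gene in CPM on TMM-scaled totals, 1 point per library, with the group mean and SD (n = 3). The groups lie apart for S100A10 (1329 to 1395 against 1078 to 1178 CPM) and for S100A16 (139 to 165 against 106 to 126 CPM) and overlap for the other genes. Of all genes tested, 26% had groups apart.

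S100A2, a nuclear member that binds p53, was the least counted of the 7, with 56 to 79 counts per library. Its level was 67.2 ± 11.5 CPM in siControl and 53.7 ± 7.11 CPM in siDelta2-4 (n = 3 each, SD), and the groups overlapped. S100A2-202 held 91.3% of its counts.

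S100A4, known as metastasin for its link to cell motility and its binding of non-muscle myosin, had a level of 728 ± 37.8 CPM in siControl and 689 ± 81.1 CPM in siDelta2-4 (n = 3 each, SD), a log2 fold change of -0.079 ± 0.092 (SE). The leading model S100A4-204 held 85.9% of the counts, S100A4-201 held 6.70% and S100A4-206 held 2.68%. S100A4-204 took a share of 82.5% to 86.4% in siControl and of 86.4% to 87.2% in siDelta2-4, so that the highest siControl share and the lowest siDelta2-4 share were both 86.4%. Of the other models, S100A4-203 had 17, 19 and 13 counts in siControl libraries 1, 2 and 3 and 9, 9 and 16 in siDelta2-4 libraries 1, 2 and 3. Its CPM values lay apart, with a log2 fold change of -0.71 ± 0.33 (SE), and it did not pass the threshold. It is a further model with an alternative first exon, 106 bases long against 54 in S100A4-204, ahead of the same coding sequence of 306 bases. CPM values that do not overlap were found for 21.8% of all tested models, and shares of a gene that do not overlap for 13% of 4188 models. Both percentages again include unannotated models.

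S100A6, calcyclin, was the most counted S100 gene, at 1520 ± 132 CPM in siControl and 1458 ± 67.5 CPM in siDelta2-4 (n = 3 each, SD), a log2 fold change of -0.061 ± 0.081 (SE). It had 11 models, and S100A6-201 took 92.4% of the counts. The share of S100A6-201 was 93.0% ± 0.16 in siControl and 91.7% ± 0.52 in siDelta2-4 (n = 3 each, SD), and the groups lay apart. The S100A6 counts include 6 unannotated models, whose rows were selected with respect to siDelta2-4, as set out below. The part of this in the difference of shares was not tested. S100A6-205 and TALONT000448395 followed, with 2.54% and 2.37% of the counts and log2 fold changes of 0.064 ± 0.21 and 0.035 ± 0.20 (SE).

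The unannotated S100A6 model TALONT000449001, with 3 exons and 438 bases, had 5, 7 and 5 counts in siControl libraries 1, 2 and 3 and 15, 15 and 20 in siDelta2-4 libraries 1, 2 and 3. Its log2 fold change was 1.36 ± 0.37 (SE), and its share of the S100A6 counts was 0.361% ± 0.077 and 0.951% ± 0.10 (n = 3 each, SD). Every unannotated model in the table had at least 5 counts in each siDelta2-4 library, whereas 1225 of 6398 had fewer than 5 in some siControl library. The rows were thus selected with respect to siDelta2-4, and the part of this in the difference was not tested.

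S100A11, calgizzarin, which binds annexin A1, had a level of 1115 ± 82.6 CPM in siControl and 1163 ± 34.8 CPM in siDelta2-4 (n = 3 each, SD), with a log2 fold change of 0.060 ± 0.081 (SE). Of its counts 94.2% lay on S100A11-201. The 2 models that followed, TALONT000445932 and TALONT000445930, held 2.76% and 2.20% and had log2 fold changes of 0.075 ± 0.23 and 0.092 ± 0.25 (SE).

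**Figure D4:**
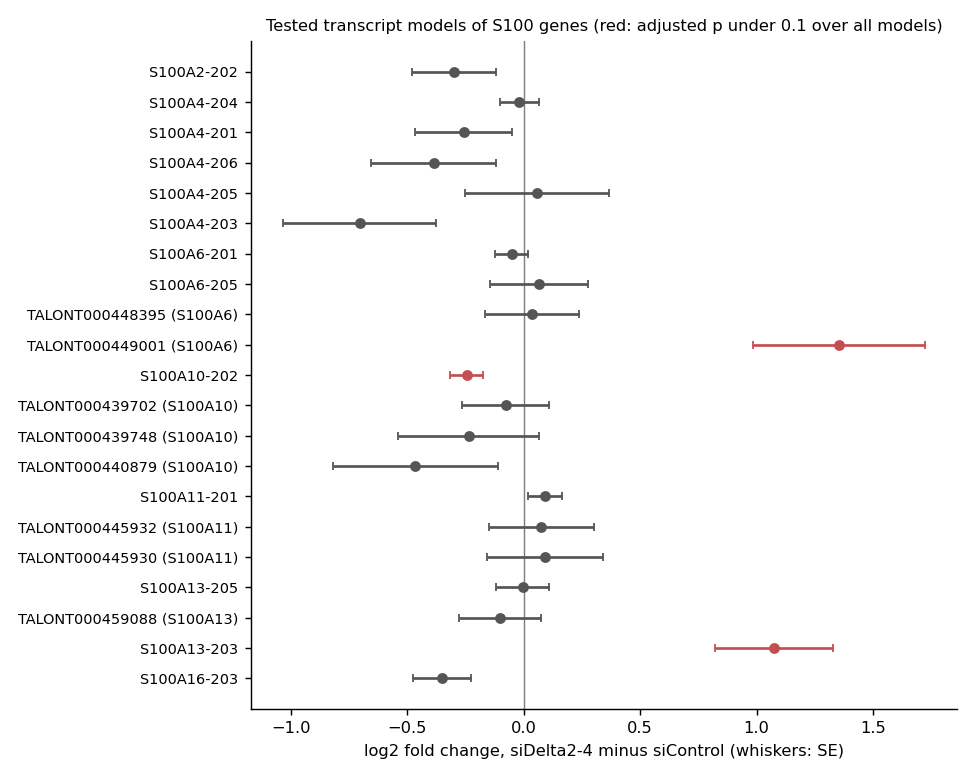
Log2 fold change (siDelta2-4 relative to siControl) of the 21 tested S100 transcript models, with SE as whiskers and models past an adjusted p of 0.1 over all models in red. S100A13-203 (1.07) and TALONT000449001 (1.36) lie to the right of the leading models, which range from -0.35 (S100A16-203) to 0.090 (S100A11-201).

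Per length, the order of the levels in siControl was S100A6 at 3442 ± 300 CPM per kb, S100A10 at 2042 ± 52.8, S100A11 at 1989 ± 147, S100A4 at 1386 ± 71.9, S100A13 at 568 ± 45.7, S100A16 at 157 ± 13.2 and S100A2 at 70.7 ± 12.1 (n = 3, SD). S100A10 and S100A11, neighbours in this order, did not differ beyond their spread. In siDelta2-4 their order was the opposite, with 1698 ± 75.1 CPM per kb for S100A10 and 2073 ± 62.0 for S100A11. The order of the other 5 was the same in both groups. All 7 genes together took 0.503% ± 0.0074 of the library counts in siControl and 0.494% ± 0.015 in siDelta2-4, with overlapping groups. These levels and shares leave out counts under 2 lncRNAs on the opposite strand, described below. There were 7858 such counts opposite S100A11 and 14085 under the lncRNA opposite S100A6. Of the latter, 3737 lay on a model like S100A4-204 in exon number and length. The order thus holds only for counts under the S100 genes themselves, S100A4 among them.

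Other genes of the family were nearly absent. S100P had 95 counts in all and a log2 fold change of 0.058 ± 0.32 (SE). S100A5 had 40 counts and S100A3, which overlaps S100A4 on the same strand, had 17, and both were too low to be tested. S100A1, S100A7, S100A8, S100A9, S100A12, S100A14, S100B, S100G and S100Z had no rows. S100A1 and the lncRNA ENSG00000271853 overlap S100A13, and neither had counts in the table.

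Models counted under 2 lncRNAs annotated on the opposite strand were like S100A11, S100A6 and S100A4 models in exon number and length, the only traits compared. ENSG00000229021, opposite S100A11, had 7858 counts beside the 7649 of S100A11 itself. All of them lay on 3 unannotated models, and each matched an S100A11 model in exon number and length. TALONT000444778, with 7694 of the counts, has 3 exons and 563 bases, as has S100A11-201. The same held at TALONT000444790 (2 exons, 471 bases, as TALONT000445930) and at TALONT000444842 (3 exons, 549 bases, as TALONT000445925). TALONT000444778 had 1251, 1173 and 1116 counts in siControl libraries 1, 2 and 3 and 1182, 1401 and 1571 in siDelta2-4 libraries 1, 2 and 3, beside 1169, 1086 and 1014 and 1208, 1335 and 1397 for S100A11-201.

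ENSG00000238279, opposite S100A6, had 14085 counts on 15 models, again none of them annotated. Of these models 12, with 94.6% of the counts, came within 10 bases of an S100A6 or S100A4 model with the same number of exons. How often unrelated models come this near was not counted. TALONT000448394 (8268 counts) has 3 exons and 441 bases, against 434 in S100A6-201. TALONT000451222 (3737 counts) has 3 exons and 517 bases, against 513 in S100A4-204. Whether these models are reads of S100A6, S100A4 and S100A11 written on the wrong strand was not tested, because the table holds no coordinates and no read strand.

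The lncRNA counts gave log2 fold changes of 0.015 ± 0.082 for ENSG00000229021 and -0.13 ± 0.080 for ENSG00000238279 (SE), neither past the threshold, beside 0.060 for S100A11, -0.061 for S100A6 and -0.079 for S100A4. TALONT000448408, a model of ENSG00000238279 with the 3 exons and 438 bases of TALONT000449001, had 17, 13 and 18 counts in siControl libraries 1, 2 and 3 and 13, 13 and 18 in siDelta2-4 libraries 1, 2 and 3, a log2 fold change of -0.31 ± 0.31 (SE).

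Genes whose products bind S100 proteins were not used to choose the 7 genes. Of 24 listed, 18 had rows and 6 could be tested, and ANXA1 alone passed the threshold, against 13% of all genes. This list and the EF-hand list were drawn up with results of the same contrast known, so their p-values are not independent evidence. ANXA1 encodes annexin A1, a calcium-dependent membrane-binding protein and the partner of S100A11. It rose from 128, 121 and 170 CPM in siControl libraries 1, 2 and 3 to 208, 231 and 206 CPM in siDelta2-4 libraries 1, 2 and 3. The groups did not overlap, as for 26% of all genes tested. The log2 fold change of ANXA1 was 0.62 ± 0.12 (SE; adjusted p = 0.00185 by edgeR), while that of S100A11 was 0.060. ANXA1 passed in every alternative setting, with log2 fold changes of 0.47 to 0.77.

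ANXA2, the annexin that S100A10 binds, had a level of 729 ± 69.5 CPM in siControl and 671 ± 52.9 CPM in siDelta2-4 (n = 3 each, SD), or -0.12 ± 0.091 as a log2 fold change (SE; adjusted p = 0.455 by edgeR). With the length trend removed its log2 fold change was -0.28 and it was called lower, the 1 of 15 alternative settings in which it was called (range -0.28 to -0.051). CACYBP, the calcyclin-binding protein of S100A6, was at 146 ± 11.1 and 180 ± 11.2 CPM, with a log2 fold change of 0.30 ± 0.11 (SE) and an edgeR adjusted p of 0.1005, just over the threshold. CACYBP was called in 2 of 15 alternative settings, which gave 0.12 to 0.37. MYH9, the myosin heavy chain bound by S100A4, had 4 counts in all and was not tested. The median log2 fold change of the 6 tested genes was 0.28, against 0.027 over all genes tested. It was 0.10 with the length trend removed, 0.17 over 5 genes on known models alone and 0.18 without siDelta2-4 library 2.

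Of 45 further genes with EF-hand domains, 32 had rows and 15 were tested. PDCD6, the gene of the penta-EF-hand protein ALG-2, rose to 57.6 ± 6.11 CPM in siDelta2-4, against 38.9 ± 4.05 in siControl (n = 3 each, SD), or 0.56 ± 0.18 on the log2 scale (SE; adjusted p = 0.054 by edgeR). CALM2 and CALM3 encode the calcium sensor calmodulin. CALM2 had a log2 fold change of 0.23 ± 0.089 (edgeR adjusted p = 0.114), and CALM3 one of -0.063 ± 0.19 (edgeR adjusted p = 0.881). Of the 15 log2 fold changes 12 were above 0 with a median of 0.15. Over the 3888 genes tested, 2094 were above 0 and the median was 0.027. The threshold was passed upward by 7% of all genes tested. With the length trend removed 10 of 15 were above 0 with a median of 0.040, and without siDelta2-4 library 1 the median was 0.061. The call of PDCD6 held in 6 of 15 alternative settings. It was lost, among others, when a trend of the fold change on transcript length was removed (log2 fold change of 0.40) and without siControl library 1 (0.47), siDelta2-4 library 1 (0.47), siDelta2-4 library 2 (0.61) or siDelta2-4 library 3 (0.60).

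**Figure D5:**
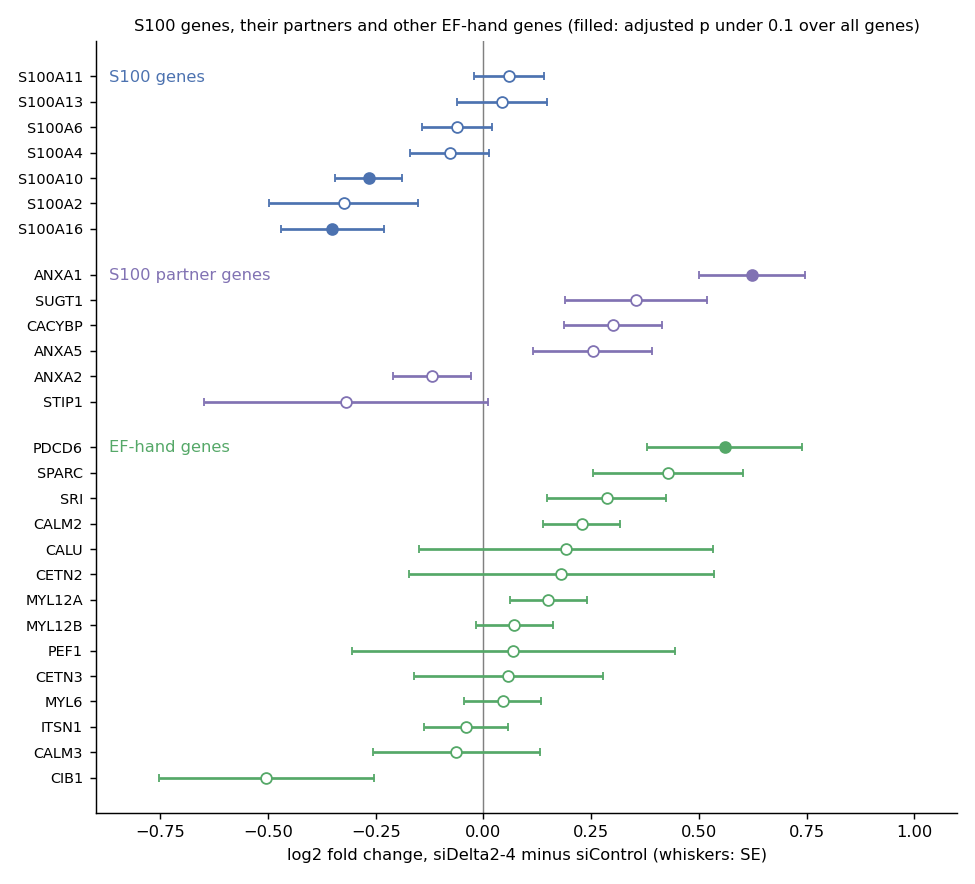
Log2 fold change (siDelta2-4 relative to siControl) with SE for the 7 S100 genes, the 6 tested partner genes and the tested EF-hand genes except 1, filled where an adjusted p over all genes is under 0.1. S100A10 and S100A16 are filled below 0, and ANXA1 (0.62) and PDCD6 (0.56) above 0.

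The genes whose log2 CPM followed S100A13 most closely over the 6 libraries, among 2366 annotated genes, were DYNLL1 (Pearson r = 0.987), a dynein light chain, LYRM7 (0.965), ENSG00000247134 (0.940), NDUFA4 (0.939) and BOLA3 (0.937). The median r of these genes with S100A13 was 0.060 and the 99th percentile was 0.883. The 6 points share their libraries and depth, and none of these 5 genes differed between the groups past the threshold.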

How the data were processed

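Long-read cDNA of Calu-6 cells was counted in 3 siControl and 3 siDelta2-4 libraries. Per the labels and the study's methods, the authors prepared PCR-cDNA libraries, sequenced them on 1 flow cell, aligned reads with minimap2 2.14 to GRCh38.p14, used SAMtools 1.13, ran TranscriptClean for correction and TALON for annotation (Gencode 44), and kept an unannotated model if it had 5 reads or more in 3 samples. The deposited values were raw counts per transcript model, not normalized, with model lengths in bases. Whether counting used the strand is not given in the sources used here.

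Columns were matched to groups by the siRNA in their names. Counts were summed per gene and tested in R 4.3.3 with edgeR 4.0.16 (TMM, filterByExpr, quasi-likelihood F test, two-sided, Benjamini-Hochberg over all genes, called at an adjusted p under 0.1). The same test was run on models, and diffSpliceDGE on usage. The SE was taken as the log2 fold change over the root of F. Levels are CPM on TMM-scaled totals, and log2 CPM used a prior count of 2. CPM per kb used the count-weighted model length. Depth was 1037468 to 1309241 counts, and Wilson intervals cover counting error only. Promoters came from RefSeq (GRCh38.p14), where all 7 genes matched, and gene models from Gencode 44.

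The 7 genes and the lists were chosen with earlier results of these data known, from the same contrast. No p is given for the 7 genes. Adjusted p-values over all genes tested are given for genes of the partner and EF-hand lists. Named genes were the 7, other S100 genes, overlapping genes, called partner and EF-hand genes with ANXA2, MYH9, CACYBP, CALM2 and CALM3, the 5 most similar genes, and for each S100 gene its leading models. S100A4-203, TALONT000449001 and the lncRNA models were named after their values were seen. The alternatives were DESeq2 size factors and the DESeq2 1.42.0 Wald test, library totals alone, no low-count filter, a minimum of 10 counts in each library, an adjusted p limit of 0.05, known models alone, the length trend removed (loess span 0.4), a block on the column number, a Simes combination for usage, and each library left out. Scripts were tested on simulated counts. The values of 1 gene of the EF-hand list are not reported here.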

Additional observations from a re-analysis of the deposited data

How the results depend on the processing

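S100A10, S100A16, ANXA1, PDCD6 and the 3 called S100 models kept the sign of their log2 fold change in every alternative that tested them. The signs of all 504 called genes were not compared. Leaving out 1 library gave 194 to 1041 genes called, against 504, with 194 without siDelta2-4 library 2 and 1041 without siControl library 3. It also gave 0 to 3 S100 genes, 1 to 3 partner genes, 0 to 3 EF-hand genes, 1 to 3 S100 models and 0 to 1 S100 genes with changed usage. The other alternatives gave 254 genes in the DESeq2 Wald test, 304 at an adjusted p under 0.05, 252 on known models alone and 299 with the block. S100 genes called numbered 1 with library totals alone, in the Wald test, without a filter, at an adjusted p under 0.05 and with the block. Partner genes called numbered 2 with totals alone, at 10 counts or more in every library and with the length trend removed. EF-hand genes called numbered 5 with totals alone, 1 in the Wald test, without a filter, at an adjusted p under 0.05 and with the block, and 0 with the length trend removed. Of the S100 models 1 was called in the Wald test, and usage gave 0 by the Simes combination and at an adjusted p under 0.05. On known models alone the S100 share of the library differed by -0.039 points and the share of S100A13-205 by -7.20 points, against -3.83 over all models. The causes were not tested.

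The labels gave no shared replicate numbers, so the block on the column number is no pairing. Totals alone called 361 genes higher and 152 lower, the Wald test 93 and 161, and the fit without the length trend 194 and 282, against 272 and 232. The medians over all genes were then 0.095, -0.00025 and -0.0091, against 0.027, and 0.19 without a filter. The alternatives on single models and on the share of S100A13-203, which was higher by 4.96 to 6.75 points, were chosen after seeing the data. Depth limited S100A13-203 and TALONT000449001, with 5 to 45 counts per library.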
